A study of Sus scrofa with 2 samples.

Results

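Binding of ZBTB16 was profiled by CUT&Tag in immature spermatogonia of pig testis, and the peaks described here lie upstream of the transcription start site (TSS) of protein-coding transcripts without reaching it. ZBTB16, also known as PLZF, belongs to the BTB zinc finger family of transcription factors and is used as a marker of undifferentiated spermatogonia. It is known for its part in keeping spermatogonial stem cells in the undifferentiated state and for recruiting co-repressors to the genes it binds. CUT&Tag brings a transposase to a chromatin protein through an antibody, and peaks are places where the released fragments pile up. A promoter is the DNA around the TSS, where the polymerase assembles, and the stretch before it can hold further regulatory elements.

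The data were 2 peak lists of 1 group, replicate 1 and replicate 2, each made from 100000 wild-type cells on the pig genome build Sscrofa11.1. Both were labelled as immature porcine spermatogonia from testicles, and the labels give no age of the animals, no purity of the cells and no statement that the libraries came from separate animals or cultures. There was no treated group, and the negative control library made without the primary antibody was not analysed here. Binding at a promoter is not expression, so the cell type could not be checked against its markers.

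Members were the peaks that the authors annotated as promoter, with a negative distance to the TSS and a coding transcript. They numbered 956 of 10273 peaks in replicate 1 (9.31%) and 729 of 7301 in replicate 2 (9.99%). They made up 17.2% and 17.5% of the coding promoter peaks, the others being 4596 and 3438 peaks that spanned the TSS. The 956 members belonged to 944 genes and the 729 to 727 genes, so nearly every gene had a single upstream peak. Among the members, 36 in replicate 1 and 22 in replicate 2 belonged to genes with only a LOC number.

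Each value below is the authors' fold enrichment, the fragments at the summit over a background, or the number of fragments at the summit recovered from the deposited values. The sources used here do not say whether the background came from the same library or from a control. Members had a median fold of 4.63 in replicate 1 and 4.90 in replicate 2. The median member rested on 16 and 14 fragments, so single peaks of median height carried wide counting error. The lowest fragment count of a member was 7 in both libraries. Over all peaks the median was also 16 and 14 fragments, and the lowest background was 1.23 times higher in replicate 1. That ratio can stand in for a difference in depth only if the background came from the library itself.

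Most upstream members lay close to the TSS. In replicate 1, 847 had their nearest edge within 1 kb of it, 69 at 1 to 2 kb and 40 at 2 to 3 kb. The same distances held 662, 45 and 22 members in replicate 2. The nearest edge was at a median of 147 bp in replicate 1 and 125 bp in replicate 2. The summits lay at a median of 368.5 bp and 325 bp upstream, with 65.7% and 72.0% of them within 500 bp. Summits ranged from 17 to 3364 bp upstream in replicate 1 and from 25 to 3919 bp in replicate 2. Of the members placed on chromosomes, 143 of 939 in replicate 1 (15.2%) and 114 of 721 in replicate 2 (15.8%) had a summit inside the span that the RefSeq table gives for their own gene, so they lay upstream of the assigned start but not of the whole gene. A summit lay inside another gene for 106 (11.3%) and 72 (9.99%) members.

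**Figure D1:**
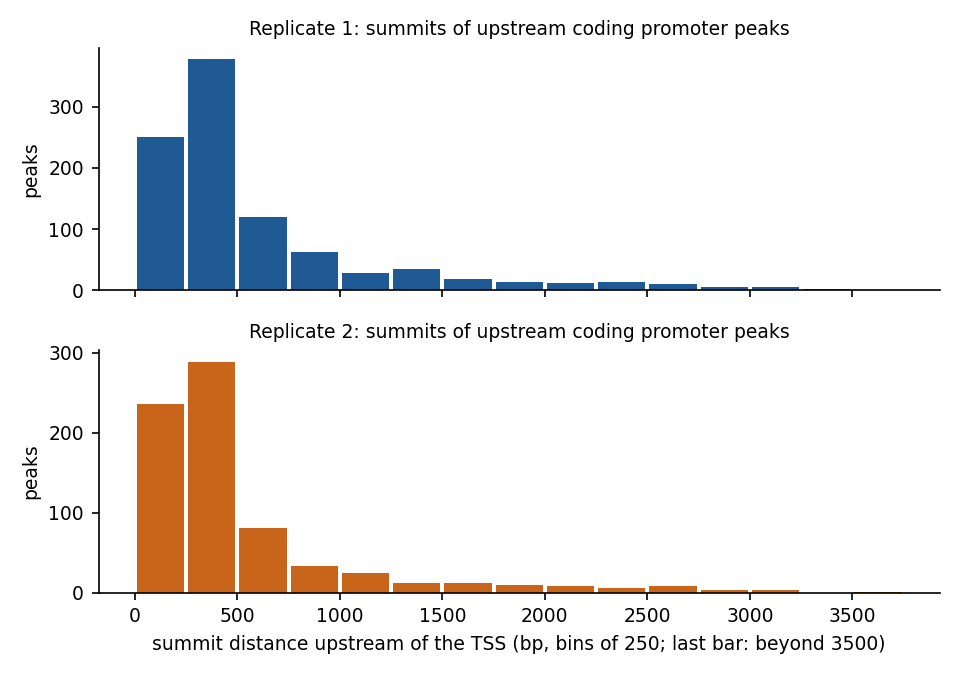
Number of upstream coding promoter peaks (vertical axis) by the distance of the summit from the TSS in bp (horizontal axis, bins of 250 bp), for replicate 1 (top) and replicate 2 (bottom). In both libraries most summits lie within 500 bp, 65.7% in replicate 1 and 72.0% in replicate 2.

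Upstream peaks recurred less often than peaks that spanned the TSS. In replicate 1, 448 of 956 members (46.9%, Wilson interval at the 95% level 43.7 to 50.0) shared 1 bp or more with a replicate 2 peak, against 53.2% of all replicate 1 peaks and 71.5% of the 4596 spanning peaks. The odds ratio against spanning peaks was 0.352 (95% interval 0.304 to 0.407, adjusted p = 2.28e-46, Fisher's exact test, two-sided, adjusted over the 2 libraries after Benjamini and Hochberg). In replicate 2, 539 of 729 members (73.9%, 70.6 to 77.0) met a replicate 1 peak, against 75% of all replicate 2 peaks and 89.6% of the 3438 spanning peaks. There the odds ratio was 0.330 (0.269 to 0.405, adjusted p = 7.13e-26, same exact test). The share of members lay below that of all peaks in replicate 1 and about level with it in replicate 2. Of distal intergenic peaks, 25.3% and 41.9% recurred. With only peaks above the median fold the replicate 1 odds ratio was 0.554 (0.443 to 0.694). These tests compare peaks within a pair of libraries, and neighbouring peaks are not independent, so the p-values understate the error. Both tests read the same overlaps, each from the side of 1 list, so the second is no replication of the first.

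**Figure D2:**
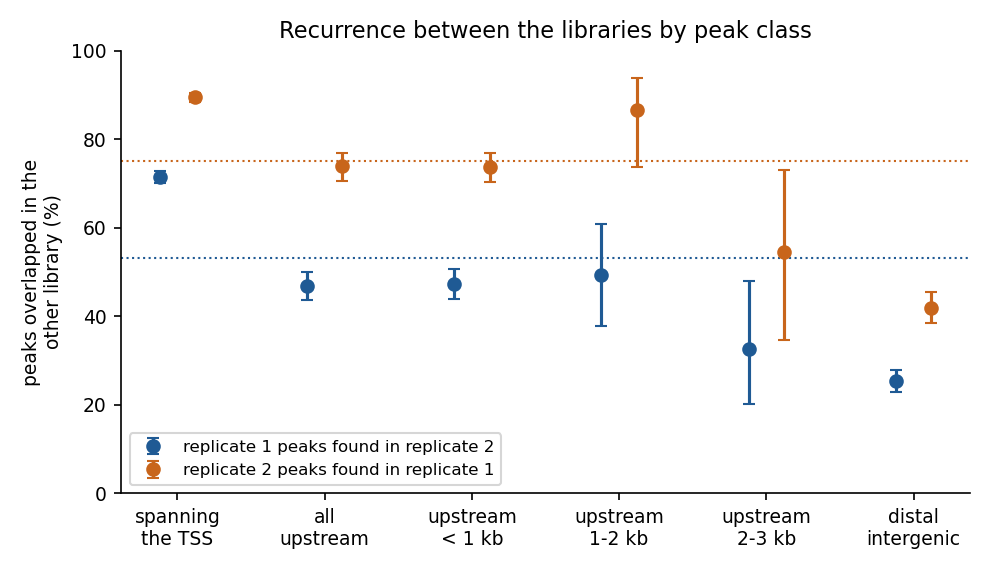
Share of peaks that overlap a peak of the other library by at least 1 bp (vertical axis, percent) for peaks spanning the TSS, upstream members in all and by distance, and distal intergenic peaks. Points are shares with 95% Wilson intervals, blue for replicate 1 peaks and orange for replicate 2 peaks, and dotted lines mark all peaks of each library (53.2% and 75%). Upstream members (46.9% and 73.9%) sit below spanning peaks (71.5% and 89.6%) in both libraries.

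Height and width moved with this difference. Of the members, 54.1% in replicate 1 had at least the median number of fragments of all peaks, against 70.3% of spanning peaks (odds ratio 0.497, 0.430 to 0.574, adjusted p = 2.63e-21, two-sided Fisher's exact test). In replicate 2 the shares were 57.3% and 68.7% (odds ratio 0.612, 0.518 to 0.724, adjusted p = 6.10e-09, same exact test). Members were also narrower, with median widths of 414 bp against 633 bp in replicate 1 and 402 bp against 554 bp in replicate 2. A wide peak reaches the TSS more easily, so the width is tied to how the members were chosen and is given as a description. Height was compared between the same classes without strata of width, so its p-values do not separate height from that choice.

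Recurrence rose with the number of fragments in both classes, and members stayed lower than spanning peaks in each of 4 quartiles of fragments. In replicate 1 members recurred in 19.6%, 31.2%, 58.0% and 83.5% of cases from the lowest to the highest quartile, against 32.6%, 53.5%, 75.2% and 93.3% of spanning peaks. The corresponding shares in replicate 2 were 42.7%, 72.2%, 85.7% and 96.3% of members and 67.7%, 85.9%, 93.9% and 99.4% of spanning peaks. Pooled over the quartiles, the odds ratio was 0.430 in replicate 1 (0.365 to 0.506, adjusted p = 1.58e-24, Cochran-Mantel-Haenszel test over peaks, n = 956 members and 4596 spanning peaks). In replicate 2 it was 0.376 (0.302 to 0.468, adjusted p = 7.21e-19, same test, n = 729 members and 3438 spanning peaks). With quartiles of fragments crossed with quartiles of width, an alternative added after the data were seen, it was 0.622 (0.523 to 0.740) and 0.496 (0.396 to 0.620), nearer to 1 in both libraries and still past the threshold. The part of width in the difference was not tested further.

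**Figure D3:**
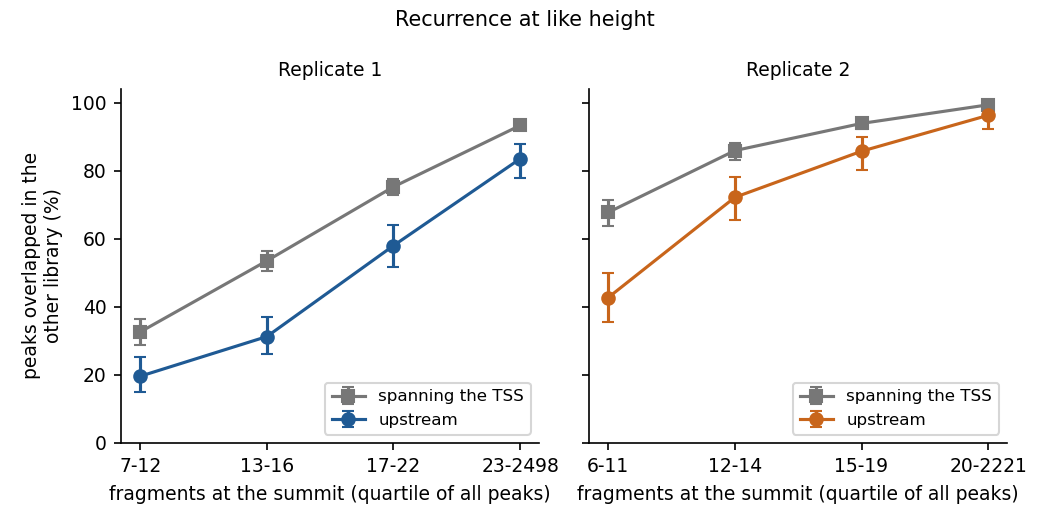
Share of peaks overlapped in the other library (vertical axis, percent) by quartile of the fragments at the summit over all peaks of the library (horizontal axis), for replicate 1 (left) and replicate 2 (right). Coloured circles are upstream members and grey squares peaks spanning the TSS, with 95% Wilson intervals. Members lie below spanning peaks in all 4 quartiles of both libraries, from 19.6% against 32.6% up to 83.5% against 93.3% in replicate 1.

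By distance, recurrence was 47.3% under 1 kb (401 of 847), 49.3% at 1 to 2 kb (34 of 69) and 32.5% at 2 to 3 kb (13 of 40) in replicate 1. In replicate 2 it was 73.7% (488 of 662), 86.7% (39 of 45) and 54.5% (12 of 22). Of the 6 pairs of distances in both libraries, 1 passed the threshold, 1 to 2 kb over 2 to 3 kb in replicate 2 (odds ratio 5.26, 1.40 to 21.7, adjusted p = 0.0367, Fisher's exact test, two-sided, adjusted over the 6 pairs). The same pair in replicate 1 had an odds ratio of 2.00 (0.836 to 4.98, adjusted p = 0.132, same exact test). By the same exact test the replicate 2 call ended when distance was taken from the summit (odds ratio 2.03, adjusted p = 0.309), with reciprocal overlap of 50% (2.19, adjusted p = 0.270), with only peaks above the median fold, or with 1 peak per gene (4.74, adjusted p = 0.0721). It held by that exact test with replicate 1 reduced to the length of replicate 2 (5.93, adjusted p = 0.0138) and with only peaks of the same gene counted (6.28, adjusted p = 0.0137). The members at 1 to 2 kb also had the highest median fragments, at 18 in replicate 1 and 17 in replicate 2, against 16 and 14 under 1 kb and 14 and 12 at 2 to 3 kb. Under 1 kb against 1 to 2 kb gave odds ratios of 0.926 (0.549 to 1.56) and 0.432 (0.147 to 1.05), intervals that allow differences in recurrence in either direction. Recurrence was not level inside 1 kb, where members were also split at 100, 200 and 500 bp, with no test. From the nearest to the farthest members it was 56.7%, 43.3%, 38.9% and 38.5% in replicate 1. In replicate 2 it was 78.4%, 76.9%, 61.2% and 69.0%. The share of members that met an upstream member again did not fall with distance. It was 33.3%, 34.4%, 36.2% and 37.5% in replicate 1, and 29.6%, 52.1%, 54.5% and 65.5% in replicate 2. Over the same distances, the share that met a spanning peak went from 23.1% to 1.04% and from 47.5% to 1.72%. Median fragments went from 18 to 15 and from 15 to 14.

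A member of 1 library was often a spanning peak in the other. Of the 448 recurring members of replicate 1, 338 (75.4%) overlapped an upstream member of replicate 2, 105 (23.4%) a peak spanning a coding TSS and 5 a peak of another class. Of the 539 recurring members of replicate 2, 338 (62.7%) overlapped an upstream member of replicate 1, 192 (35.6%) a spanning peak and 9 another class. Such changes of class fell with distance. A spanning partner has to bridge the gap between the member and the TSS, so this fall is tied to how the classes were set. Among recurring replicate 2 members, the overlapping peak spanned a TSS for 60.6% with an edge at 1 to 100 bp, 30% at 101 to 200 bp, 10.98% at 201 to 500 bp and 2.5% at 501 to 1000 bp. All 34 and 39 recurring members at 1 to 2 kb met an upstream member again.

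Where the class changed, the spanning peak was the wider one by the median. The member by rule stops short of the TSS that its partner has to reach, so these widths are given as a description. In 159 pairs of a replicate 2 member with a replicate 1 spanning peak at the same start, the median width was 401 bp in replicate 2 and 670 bp in replicate 1. Their summits differed by a median of 107 bp, and the replicate 1 peak reached a median of 174 bp past the TSS. In 88 pairs of a replicate 1 member with a replicate 2 spanning peak, the median widths were 429 bp in replicate 1 and 566.5 bp in replicate 2. In the 337 pairs that were upstream in both libraries, the summits differed by a median of 72 bp. GSK3B, a kinase that marks beta-catenin for breakdown, shows such a change. Its replicate 1 peak ended 33 bp before the TSS (10.2-fold, 85 fragments), and the overlapping replicate 2 peak (8.56-fold) spanned it. CTNNB1, which encodes beta-catenin, changed the other way, with an upstream member in replicate 2 (7.39-fold, 68 bp from the TSS) and a spanning peak in replicate 1 (5.45-fold).

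**Figure D4:**
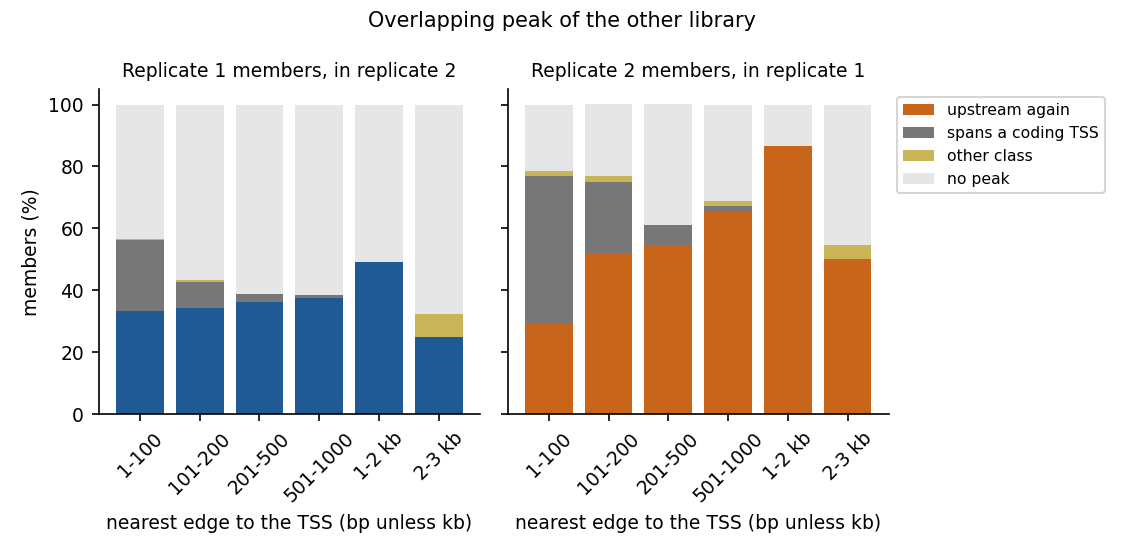
Share of upstream members (vertical axis, percent) by what they overlap in the other library, for 6 distances of the nearest edge from the TSS (horizontal axis). The left panel shows replicate 1 members and the right panel replicate 2 members. Colour marks an upstream member, dark grey a peak spanning a coding TSS, yellow another class and light grey no peak. Spanning partners are most frequent at 1 to 100 bp, 23.1% of replicate 1 and 47.5% of replicate 2 members, and absent at 1 to 2 kb and 2 to 3 kb.

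Of the 508 replicate 1 members without an overlapping peak, 28 belonged to a gene with a coding promoter peak elsewhere in replicate 2, and 74 to a gene with any replicate 2 peak. For the 190 such members of replicate 2 the counts were 18 and 36. A member's gene also had a spanning peak in the same library in 36 cases in replicate 1 and 15 in replicate 2.

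At 337 genes an upstream member of replicate 1 overlapped an upstream member of replicate 2, 293 of them under 1 kb, 34 at 1 to 2 kb and 10 at 2 to 3 kb by the replicate 1 edge. Fold in one library followed fold in the other, with Pearson's r of 0.722 on the log2 scale and Spearman's rho of 0.639 over the 337 genes, which share their libraries and had to pass the caller in both. The log2 fold in replicate 1 minus that in replicate 2 had a median of 0.06 and an SD of 0.29, and 318 pairs differed by at most 1.5-fold. Fold was higher in replicate 1 for 195 pairs and in replicate 2 for 142. INTS3, a subunit of the Integrator complex, had the widest gap, at 4.63-fold in replicate 1 and 9.80-fold in replicate 2. It was named after its values were seen.

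**Figure D5:**
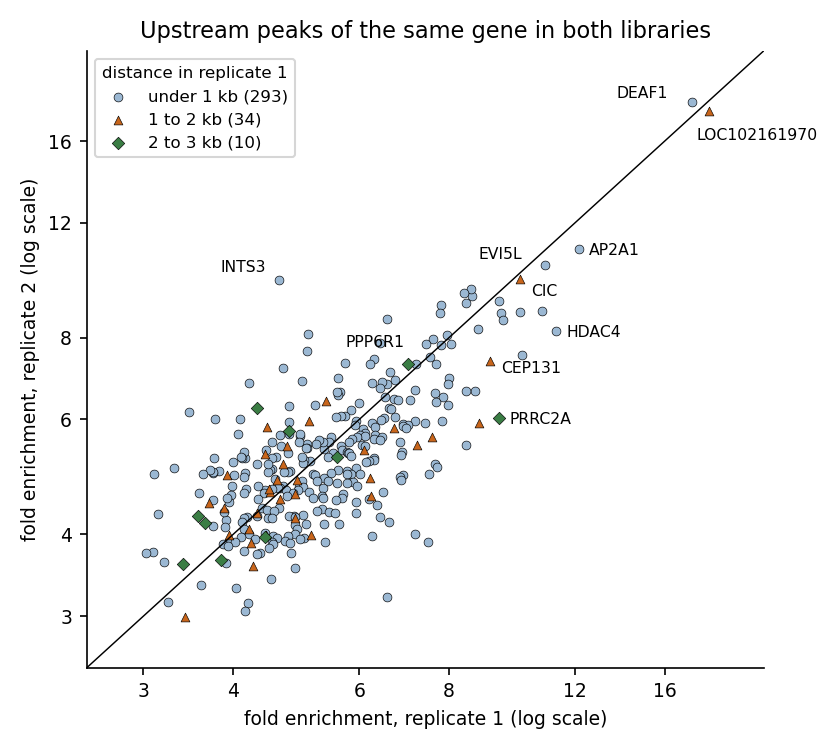
Fold enrichment in replicate 1 (horizontal axis) against replicate 2 (vertical axis), both on log scales, for 337 genes with overlapping upstream members. Blue circles are 293 members under 1 kb, orange triangles 34 at 1 to 2 kb and green diamonds 10 at 2 to 3 kb, and the line marks equal fold. DEAF1 and LOC102161970 have the highest fold in both libraries, and INTS3 lies farthest from the line.

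Under 1 kb, the strongest pairs included transcription factors and RNA-binding proteins. DEAF1, a transcription factor (chromosome 2, 427633 to 428215 in replicate 1), had a 17.4-fold peak of 204 fragments in replicate 1 (177 to 234, exact Poisson interval at the 95% level) and an 18.4-fold peak of 179 in replicate 2 (154 to 207). Its edges lay 49 and 12 bp before the TSS and its summits 338 and 283 bp upstream. ELK1, an ETS factor activated by MAP kinases (chromosome X, 42174994 to 42175692), had 9.40-fold and 9.12-fold peaks of 44 and 29 fragments. The fold of both factors was nearly equal in the 2 libraries.

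FXR2, a paralogue of the fragile X protein (chromosome 12, 52903530 to 52904041), had 9.46-fold and 8.73-fold peaks, with summits 538 and 466 bp upstream. KHSRP, which promotes decay of AU-rich messenger RNAs (chromosome 2, 72656063 to 72656809), had 9.51-fold and 8.53-fold peaks with summits 576 and 492 bp upstream. Poisson intervals of their fragments overlapped between the libraries before any allowance for depth, at 38.0 to 67.1 and 21.9 to 45.2 for FXR2 and at 42.3 to 72.7 and 26.9 to 52.2 for KHSRP.

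The other strong pairs under 1 kb served trafficking, signalling and metabolism. AP2A1, the alpha subunit of the AP-2 clathrin adaptor (chromosome 6, 54785745 to 54786496), had a 12.1-fold peak of 106 fragments and a 10.95-fold peak of 73, with the summit at the same base, 251 bp upstream. EVI5L, a TBC domain protein that acts on RAB GTPases, had 10.9-fold and 10.3-fold peaks. PPP2R5A, a regulatory subunit of protein phosphatase 2A (chromosome 9, 131076281 to 131077069), had 10.8-fold and 8.80-fold peaks whose edge lay 478 bp from the TSS in both lists. ALDH4A1, a mitochondrial enzyme of proline breakdown, had 10.07-fold and 8.76-fold peaks.

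At 1 to 2 kb, the strongest pair of a gene with a name, LOC numbers left aside, was CIC, an HMG-box repressor whose activity is relieved by RAS-MAPK signalling (chromosome 6, 49665490 to 49666341). It had a 10.07-fold peak of 123 fragments in replicate 1 (102 to 147) and a 9.84-fold peak of 88 in replicate 2 (70.6 to 108), with edges 1344 and 1360 bp and summits 1629 and 1919 bp upstream. CEP131, a protein of centriolar satellites (chromosome 12, 1535449 to 1536514), had 9.14-fold and 7.38-fold peaks of 35 and 23 fragments. FASN, the fatty acid synthase (chromosome 12, 919712 to 920619), had 6.71-fold and 5.81-fold peaks, and its edge moved from 1786 bp in replicate 1 to 2114 bp in replicate 2. The peaks of EFCAB1, an EF-hand protein (8.82-fold and 5.92-fold), and OC90, the inner ear protein otoconin 90 (7.58-fold and 5.63-fold), rested on 15 fragments each in replicate 2. RNF208, a RING finger protein on an unplaced scaffold, had 7.23-fold and 5.48-fold peaks.

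The member with the most fragments in both libraries was at LOC102161970, an unnamed gene (chromosome 10, 39875242 to 39876014), whose peak lay 1184 bp from the TSS in replicate 1 and 1181 bp in replicate 2. It had an 18.5-fold peak of 576 fragments in replicate 1 (530 to 625) and a 17.8-fold peak of 429 in replicate 2 (389 to 472). Its recovered background was 30.3 and 23.2 fragments, against medians of 2.65 and 2.11 over the members. It falls outside the rule for named genes and was named after its values were seen.

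At 2 to 3 kb, the strongest pair was PPP6R1, a regulatory subunit of protein phosphatase 6 (chromosome 6, 59450243 to 59450812), at 7.01-fold and 7.30-fold with 33 and 27 fragments and summits 2868 and 2830 bp upstream. PRRC2A, an RNA-binding protein (chromosome 7, 23739411 to 23740173), had summits 2495 and 2494 bp upstream, yet its fold went from 9.40 in replicate 1 (57 fragments, 43.2 to 73.8) to 6.03 in replicate 2 (27 fragments, 17.8 to 39.3). GFOD1 (5.58-fold and 5.26-fold), ARPC3, a subunit of the Arp2/3 actin nucleator (4.78-fold and 5.77-fold), TMEM151B (4.43-fold and 3.97-fold) and SIRT4, a mitochondrial sirtuin (3.65-fold and 4.16-fold), rested on 11 to 20 fragments. SIRT4 had the widest summit shift of all pairs, 1034 bp, with a replicate 2 peak from 40286215 to 40287459 on chromosome 14.

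Some strong members had no counterpart. PDXDC1, a decarboxylase domain protein (chromosome 3, 7464932 to 7465243), had a 10.4-fold peak of 32 fragments (21.9 to 45.2) in replicate 1 and no peak in replicate 2, where the nearest lay 23.1 kb away. NAXD, which repairs damaged NADPH (8.34-fold, 22 fragments), and RALGAPA2, a subunit of a GTPase-activating complex for RAL (8.32-fold, 32 fragments), were also in replicate 1 only. In replicate 2 only, the strongest were SLC1A4, a neutral amino acid transporter (7.01-fold, 19 fragments), UBE2K, a ubiquitin-conjugating enzyme (6.53-fold, 18 fragments), and TBC1D9B, a TBC domain protein (6.36-fold, 15 fragments). SLC1A4 had another peak in replicate 1, a distal intergenic one 19.2 kb away. The other library held no peak assigned to the remaining 5 genes, and at 15 to 32 fragments a weaker peak there may have missed the caller's threshold.

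Across protein-coding genes of the RefSeq table, 4.57% of 20645 had an upstream member in replicate 1, 3.52% in replicate 2 and 1.67% in both, while 13.5% had a TSS-spanning peak in both. The gene lists below are described by counts beside these shares, with no test. Together they held 460 genes, of which 37 had a member in replicate 1, 27 in replicate 2 and 14 in both (3.04%).

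Of 31 genes of undifferentiated spermatogonia, 1 had a member in both libraries, EGR2, a zinc finger factor (chromosome 14, 66288980 to 66289252), at 4.16-fold and 4.97-fold with 19 and 17 fragments. FGFR3, a fibroblast growth factor receptor, had one in replicate 2 only (3.56-fold, 10 fragments). None of 13 genes of differentiating spermatogonia and none of 16 genes linked to ZBTB16 in mouse studies had one in either library. By spanning peaks in both libraries, 4 of 31, 1 of 13 and 4 of 16 of these genes were bound. The shares for undifferentiated genes, 3.23% in both libraries and 12.9% spanning peaks, lay near those of all genes.

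Of 29 meiosis genes, 4 had a member in replicate 1 (13.8%, against 4.57% of all genes). In replicate 2, 1 gene had a member (3.45%, against 3.52%), the same 1 that had a member in both. That was MEIOB, which binds single-stranded DNA in meiotic recombination (chromosome 3, 40092123 to 40092581), at 7.18-fold and 6.66-fold with 43 and 32 fragments and edges 108 and 113 bp from the TSS. DMC1, the meiotic recombinase (5.36-fold, 15 fragments), and RNF212, a crossover factor (5.34-fold, 12 fragments), had one in replicate 1 only, as had RAD21L1, a meiotic cohesin subunit named to complete the count (3.58-fold, 8 fragments). Of 29 spermatid and sperm genes, IZUMO1, needed for sperm-egg fusion, had one in replicate 2 only (3.43-fold). MEIOB was thus the germ cell gene of these lists with the highest upstream peaks.

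Among markers of other testis cells, the members were TAGLN of peritubular myoid cells (4.44-fold and 4.68-fold, 1 of 10 genes in both libraries), CD68 of macrophages in replicate 1 only (3.65-fold, 1 of 12) and TF, transferrin of Sertoli cells, in replicate 2 only (4.0-fold, 1 of 19), with a spanning peak in replicate 1. Of the 12 Leydig cell and 10 endothelial markers, none had a member in either library. HOXB6 was the 1 gene of 36 in the HOX clusters with a member (5.01-fold in replicate 1 only, edge 2729 bp from the TSS).

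Among the genes of GDNF, FGF and RAS-MAPK signalling, SOS2, a RAS exchange factor, had a member in both libraries (6.91-fold and 5.90-fold). The SOS2 edge lay 1 bp from the TSS in replicate 1 and 259 bp in replicate 2, which shows how near the limit of the class a member can lie. FGFR1, a fibroblast growth factor receptor, had a member in replicate 1 only (4.39-fold). SPRY2, a feedback inhibitor of this signalling, was likewise in replicate 1 only (4.07-fold) and was named after its values were seen.

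Of 31 WNT genes, GSK3A, the paralogue of GSK3B, had a member in both (chromosome 6, 49689377 to 49690202; 6.01-fold and 5.68-fold, 40 and 31 fragments, summit 367 bp upstream in both). TGF-beta and BMP signalling had 3 of 32 genes in each library and none in both. The strongest were SKI, a co-repressor of SMAD proteins (6.06-fold), and TGFBR1, a receptor kinase (5.04-fold), in replicate 2 only, and BMPR2, a receptor of BMP ligands (4.58-fold), in replicate 1 only. RRAGC, a RAG GTPase that recruits mTORC1 to lysosomes, was the 1 of 27 mTORC1 genes with a member, in both libraries (5.33-fold and 5.54-fold).

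Of 38 cell cycle genes, 13 had a spanning peak in both libraries, a larger share than over all genes (2782 of 20645, 13.5%). This list too was written with earlier results of these data known. An upstream member in both libraries was found for 1 of the 38 (2.63%, against 1.67%). That was CDKN1B, the CDK inhibitor p27 (3.75-fold and 4.97-fold). MCM6, a subunit of the replicative helicase, had an upstream member in replicate 2 (5.30-fold) and a spanning peak in replicate 1 (7.40-fold). The proliferation marker MKI67 had a member in replicate 1 only (4.77-fold).

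Chromatin regulators had 4 of 45 genes with a member in both libraries (8.89%), 8 in replicate 1 (17.8%) and 5 in replicate 2 (11.11%). HDAC4, a class IIa histone deacetylase (chromosome 15, 138657509 to 138658267), had an 11.3-fold peak of 62 fragments in replicate 1 and an 8.19-fold peak of 35 in replicate 2, with an edge 243 bp from the TSS in both. The histone H3 lysine 4 methyltransferases KMT2B (5.74-fold and 6.06-fold) and KMT2A (3.94-fold and 3.84-fold) also had members in both libraries, as had the demethylase KDM5B, named to complete the count (3.85-fold and 3.66-fold). These shares lie above those of all genes, but the lists were written with earlier results of these data known.

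Ribosomal protein genes had a member in 8 of 58 cases in replicate 1 (13.8%), 6 in replicate 2 (10.3%) and 2 in both (3.45%). Over all genes the shares were 4.57%, 3.52% and 1.67%, and the same caveat on the lists applies. Spanning peaks lay at 20 of the 58 in replicate 1, 15 in replicate 2 and 10 in both. RPLP2, an acidic protein of the ribosomal stalk (chromosome 2, 507411 to 507835), had 7.05-fold and 6.42-fold peaks of 46 and 35 fragments, and RPL28 had 5.68-fold and 4.55-fold peaks. RPL23 had a member in replicate 2 only (5.90-fold). RPL7 and RPL3 had a member in replicate 1 that overlapped a spanning peak in replicate 2, and RPL30 had the reverse. These 3 were named after their values were seen.

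An end of another RefSeq gene lay within 3 kb upstream of the assigned TSS for 154 of 939 members in replicate 1 (16.4%) and 115 of 721 in replicate 2 (15.95%). Among spanning peaks the shares were 28.5% and 29.0%. Within 1 kb they were 5.86% of members and 20.3% of spanning peaks in replicate 1, and 5.13% and 21.8% in replicate 2. The authors assigned each peak to 1 gene, so these shares are not independent of how the members were chosen. They are given as a description, and a test run on them is not reported for that reason. The table gives no strand, so the end of the neighbour may be its start or its finish.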

How the data were processed

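The deposited tables held 1 row per peak, called per library, with position, summit, gene, transcript, class and distance to the TSS from the authors. Per the file headers, values are a fold enrichment (a linear ratio), −log10 p-values and q-values, and a score, which the authors deposited as the whole part of 10 times the −log10 q-value and which was not used. Coordinates are on Sscrofa11.1, the build named in the submitters' processing notes. For the aligner, caller, control and annotation software, no name is given by the sources used here.

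Whole fragments at each summit were recovered from the deposited fold, (fragments + 1)/(background + 1), and −log10 p-value, the upper tail of a Poisson distribution, for 100% of peaks (relative error under 1e-05), and on 500 simulated peaks 100% were recovered. Intervals on fragments and shares cover counting error only. Peaks sharing 1 bp or more were counted as recurring, with equal counts from bedtools 2.31.1. Distances are from the nearest edge. Chromosomes 19 and 20 of the files are X and Y, and 17 and 8 members on unplaced scaffolds were kept. Python 3.11.15, scipy 1.17.1, statsmodels 0.14.6, pandas 2.3.3, numpy 2.4.6 and matplotlib 3.10.9 were used. All p-values compare peaks of these libraries, whose spread may be technical.

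The members, gene lists and tests were chosen with earlier results of these data known. Named are the recurring pairs ranked by the lower of the within-library ranks of fold (8 under 1 kb, 6 at 1 to 2 kb, 6 at 2 to 3 kb, no LOC numbers), the 3 strongest members found in 1 library only per library, and up to 3 members per list. A few more list members are named to complete small counts. Some list results are not reported here. Finer distances under 1 kb were added after the data were seen. The planned CpG comparison of promoter windows was not run because no sequence was used here. The planned test of divergent neighbours was replaced by a comparison of gene ends on either strand, of which only the shares are given, as a description. Alternatives were other overlaps, stricter folds or q-values, equal list lengths, the same gene only, 1 peak per gene, summit distances, other strata and either library left out.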

Additional observations from a re-analysis of the deposited data

How the results depend on the processing

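The lower recurrence and lower height of upstream members kept their direction and their side of the threshold in both libraries under every alternative run for them. No alternative separated height from the rule that sets the classes, and the recurrence tests of both libraries read the same overlaps. Among alternatives without strata, the replicate 1 odds ratio of recurrence moved most, from 0.352 to 0.554 with peaks above the median fold. Over quartiles of width alone, also added after the data were seen, the pooled odds ratio came nearest to 1. It was 0.66 (0.56 to 0.78) in replicate 1 and 0.555 (0.45 to 0.68) in replicate 2, against 0.430 and 0.376 over quartiles of fragments. The comparison between distances was less stable, and the cause was not tested. For 1 to 2 kb over 2 to 3 kb in replicate 2 the odds ratio of 5.26 became 2.03 with summit distances, 2.19 with reciprocal overlap, 1.475 with peaks above the median fold and 4.74 with 1 peak per gene, none past the threshold, and 5.93 with replicate 1 reduced and 6.28 with the same gene only, both past it. For under 1 kb over 1 to 2 kb in replicate 2, peaks above the median fold gave 1.015. With replicate 1 reduced to the length of replicate 2, under 1 kb over 2 to 3 kb passed in replicate 2 (3.09). With only coding promoter peaks of the same gene counted, under 1 kb over 2 to 3 kb passed in both libraries (2.63 and 2.54), 1 to 2 kb over 2 to 3 kb passed in replicate 1 (2.89) and under 1 kb over 1 to 2 kb in replicate 2 (0.391). The lists held 14 genes with a member in both libraries, and 27 to 37 with 1 library left out. Leaving out a library removes overlap itself, so no recurrence could be computed that way. No paired analysis was possible because both libraries belong to 1 group. The bins beyond 1 kb hold few peaks, and a median member of 14 to 16 fragments limits what the absence of a peak can show.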

Other observations

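Several small gene families held upstream members at more than 1 gene. They were picked after the members had been seen, so their shares are descriptions and show nothing against other genes. Over all protein-coding genes the shares were 4.57% in replicate 1, 3.52% in replicate 2 and 1.67% in both. Of the 5 Notch ligands, JAG1, JAG2 and DLL4 had an upstream member in both libraries and none had a spanning peak in either. JAG1 (chromosome 17, 19629671 to 19630011) had 6.36-fold and 4.44-fold peaks with 26 and 15 fragments, JAG2 4.60-fold and 5.26-fold peaks, and DLL4 3.15-fold and 4.29-fold peaks. Of the 5 genes of the KMT2 family, KMT2E (chromosome 9, 104910282 to 104911511) had 6.30-fold and 5.85-fold peaks with summits 1105 and 1142 bp upstream. It joined KMT2A and KMT2B as the 3 with members in both.

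Of 26 ETS factor genes, 4 had members in both libraries. Beside ELK1 these were ETS2 (7.67-fold and 6.38-fold), ELF2 (5.24-fold and 4.84-fold) and ETV1, a factor of the same subgroup as ETV5 (4.88-fold and 4.24-fold, edges 1091 and 1190 bp from the TSS). Of 17 KLF zinc finger genes, KLF9, KLF13 and KLF16 had members in both, at 4.02-fold and 3.90-fold, 5.59-fold and 4.79-fold, and 4.53-fold and 5.25-fold. Of 41 ZBTB genes, the family of ZBTB16 itself, ZBTB7B, ZBTB7C, ZBTB17 and ZBTB18 had members in both libraries, with ZBTB18 the highest (5.48-fold and 5.63-fold). In all, 9 of the 41 had a member in replicate 1 and 4 in replicate 2.

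Of 30 immediate early and growth factor response genes, 10 had a member in replicate 1, 11 in replicate 2 and 8 in both. The shares over all protein-coding genes were 4.57%, 3.52% and 1.67%. This list was also written after the members had been seen, so its counts show nothing against other genes. JUN, a subunit of AP-1 (chromosome 6, 153685126 to 153685911), had the highest peaks, at 7.60-fold and 7.98-fold with 54 and 43 fragments. ERRFI1, an inhibitor of the EGF receptor, had 6.41-fold and 4.25-fold peaks. EGR2 and KLF9 are in this list as well as in one described above. NR4A3, a nuclear receptor, had a pair of members in replicate 1, of which the one 1955 bp from the TSS recurred and the one 44 bp from it did not.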
